A study of Mus musculus with 4 samples.

Results

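T cells that carried transcripts of both Thy1 and Tcf7, and none of the CD8 and CD4 co-receptor genes, were examined among the CD45+ cells that had been sorted from small-intestinal crypts of mice. A cell barcode was a member if it had at least 300 genes, at most 10% mitochondrial UMIs (unique molecular identifiers, each standing for 1 captured transcript), at least 1 UMI of Cd3e, Cd3d or Cd3g, at least 1 of Thy1 and 1 of Tcf7, and 0 of Cd8a, Cd8b1, Cd4, Cd79a and Siglech. There were 430 such cells among 68260 barcodes, of which 68087 passed the first 2 limits and 57174 also had a CD3 UMI with no Cd79a or Siglech. Members were thus chosen by measured UMIs of these genes, so what follows from the choice is given without a test. The sample titles name a cystine group and a control group of 2 samples each, and the sort protocol speaks of a diet high in cysteine, the reduced form of cystine, and a control diet. The treatment tag reads Control for all 4 samples, so the groups were taken from the titles. The labels give the mice of all 4 samples as male, under the tag for genotype. Strain and age are not given in the sources used here. The labels do not say whether a sample was 1 mouse or a pool of mice, so the p-values below measure only the spread between these samples.

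Most T cells of the gut epithelium, the intraepithelial lymphocytes, carry either a γδ receptor or an αβ receptor together with a CD8αα co-receptor, and keep granzymes and chemokines ready for release. A minority carry neither CD8 nor CD4. Thy1, a glycolipid-anchored surface protein, is used to divide these lymphocytes into subsets. Tcf7 encodes TCF-1, a transcription factor that works with its relative Lef1 in thymic T cell development and in the upkeep of naive and memory-like T cells, and Id3 is an inhibitor of E-protein transcription factors that is induced by T cell receptor signalling.

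The libraries held 31301936 and 31215609 UMIs in cystine replicates 1 and 2, against 27229695 and 30684435 in control replicates 1 and 2. Members numbered 87 and 116 in the cystine samples, against 119 and 108 in the controls. Their median depth was 1495 and 2013.5 UMIs per cell in the cystine samples and 1812 and 1886.5 in the controls. It lay above the medians of the other CD3+ cells with neither CD8 nor CD4, which were 1026 to 1432 UMIs. Sequences of 2276 barcodes occurred in more than 1 library, and 22 members had such a barcode, but no barcode was a member in 2 libraries. Cystine replicate 1 stood apart from the other libraries in its members: the 13 B and plasma cell markers summed to 3864 CPM there (a gene's UMIs divided by all UMIs of the cells in question, times 1000000), against 560 to 718 CPM in the other 3 libraries. There, 2 of the 87 members held 255 and 233 of the 622 UMIs behind that sum, among them 179 and 162 of its 393 UMIs of Cd74, the invariant chain of antigen presentation. Without these 2 cells the sum was 880 CPM. The cell with 179 Cd74 UMIs also held 27 UMIs of C1qa and 36 of Apoe, which macrophages express. Ms4a1 and Pax5, which mark B cells, were at 0 in the members of this library.

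The evidence of Thy1 and Tcf7, the positive markers of the rule, was thin in single cells: 34 and 41 members of the cystine samples and 45 and 40 of the controls had exactly 1 UMI of each. The Cd8a limit had close neighbours outside it. Of 991 CD3+ cells with Thy1 and Tcf7 and without Cd8b1 and Cd4, 430 had 0 UMIs of Cd8a, 110 had 1 and 451 had at least 2. Missed Cd8a transcripts cannot be told apart from true absence in cells of this depth. The share of CD3+ Thy1 Tcf7 cells that had neither CD8 nor CD4 was 33.5% and 26.8% in the cystine samples and 31.6% and 28.0% in the controls, and the corresponding share of the CD3+ cells with neither transcript ranged from 9.93% to 16.5%.

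Of the 3 marker genes that the rule did not use, Tgm2 and Cd160 were more frequent in members than in the other double-negative cells and in B cells (Cd79a and Cd79b without CD3), and Id3 was more frequent in members than in the other double-negative cells only. These shares are a description with no test. Tgm2, a transglutaminase that cross-links proteins, had a UMI in 6.90% and 15.5% of members in the cystine samples and 13.4% and 17.6% in the controls, and in 2.19% to 5.26% of the other double-negative cells. At most 0.424% of B cells had Tgm2. Cd160, an immunoglobulin-like receptor of intraepithelial lymphocytes and NK cells, was present in 54.0% and 67.2% of members in the cystine samples and 68.1% and 82.4% in the controls. Its share in the other double-negative cells was 39.1% to 47.8%, and in B cells 0% to 2.65%. Id3 was present in 34.5% and 26.7% of members in the cystine samples and 25.2% and 26.9% in the controls. The other double-negative cells had it in 4.58% to 10.3%, but B cells in 21.8% to 26.2%, close to the members. After each cell was thinned to 1000 UMIs, Tgm2 was found in 5.33% and 9.01% of cystine members and 3.60% and 10.4% of control members, with all 4 values above those of the other double-negative cells of the same library. For Cd160 the thinned share of cystine replicate 1, 44.0%, was below that of its other double-negative cells, 46.0%. The label of double-negative Thy1 Tcf7 T cells holds by construction for the measured UMIs of the rule's genes only. The place of the cells within the crypt tissue was not measured.

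**Figure D1:**
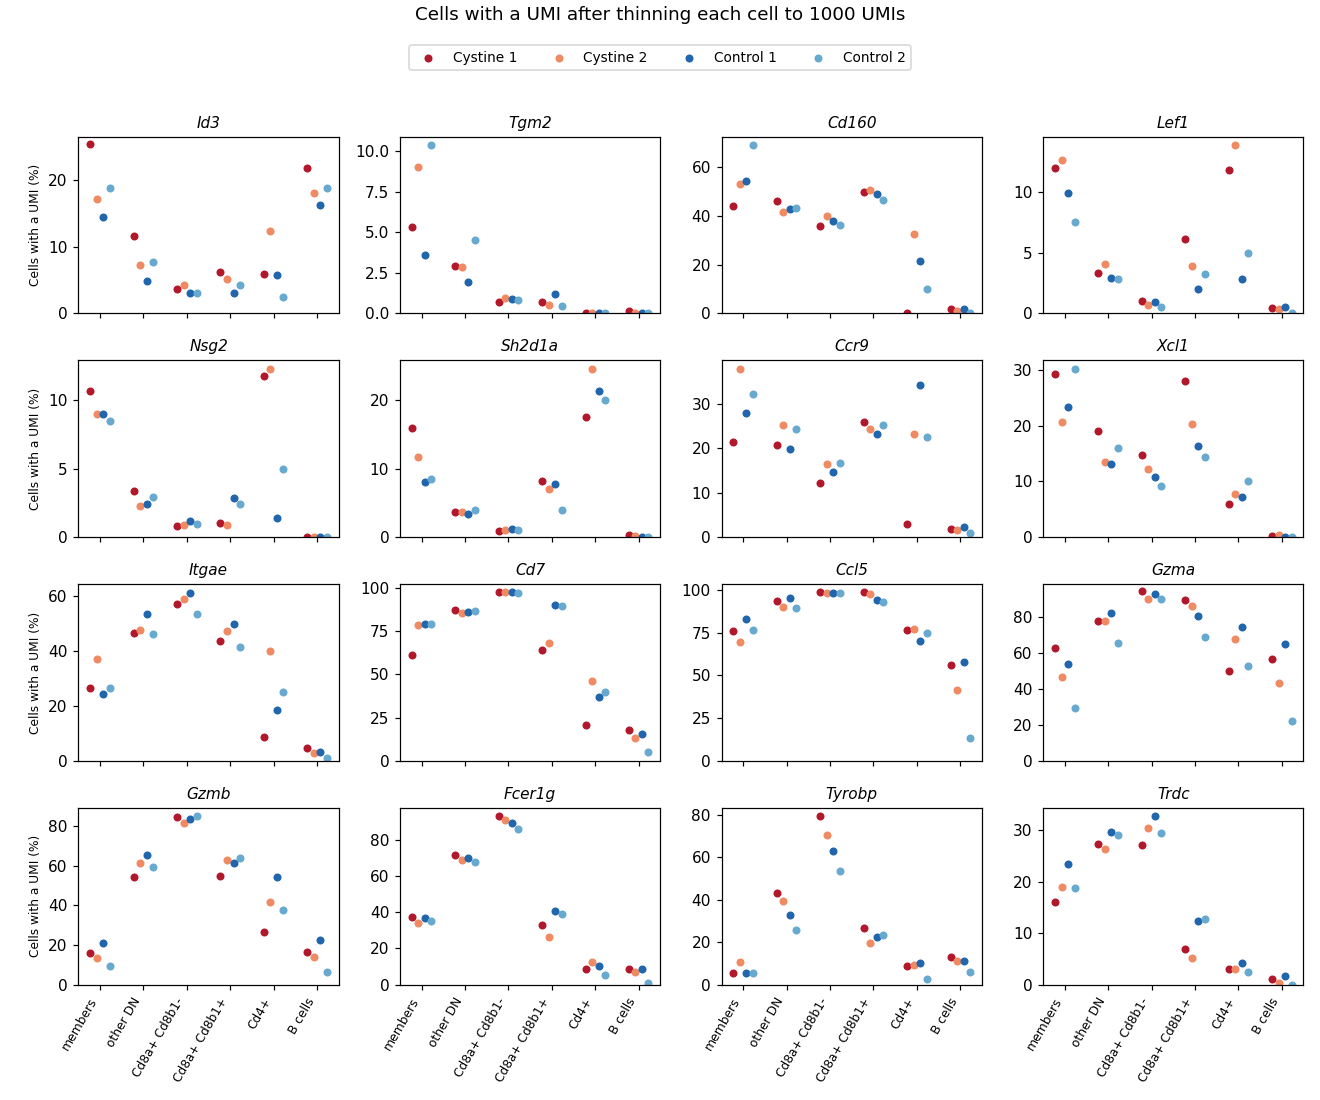
Share of cells with at least 1 UMI of 16 genes after thinning each cell to 1000 UMIs, for members, other double-negative (DN) CD3+ cells, Cd8a+ Cd8b1- cells, Cd8a+ Cd8b1+ cells, Cd4+ cells and B cells. Points are the 4 samples, with cystine in red tones and control in blue tones. Members are high for Id3, Tgm2 and Lef1 and low for Gzmb and Tyrobp, and Gzma in members is near its share in B cells of the same sample.

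The captured T cell receptor transcripts of the members were not of 1 type, and the receptor that each cell carried was not tested. By transcripts of the constant regions, 108 members had Trdc (the δ chain) without Trac (the α chain), and 73 had Trac without Trdc. Trdc alone was found in 23.0% and 24.1% of members in the cystine samples and 26.9% and 25.9% in the controls. Trac alone was found in 20.7% and 14.7% in the cystine samples and 16.0% and 17.6% in the controls. A further 5 and 13 members in the cystine samples and 13 and 11 in the controls had both, and 44 and 58 in the cystine samples and 55 and 50 in the controls had neither. The cystine samples lay below the controls for Trdc alone (23.6% ± 0.813 against 26.4% ± 0.682, SD, n = 2 each) with a two-sided exact permutation p of 0.33, the smallest these 4 samples allow. Background was low: Trdc was found in at most 2.51% of B cells and Trac in at most 2.51%.

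Variable-region transcripts were mixed as well. Trgv2 was found in 275 of the 430 members (64.0%), Tcrg-V1 in 210 (48.8%), Tcrg-V4 in 132 (30.7%) and the δ segments Trdv5 and Trdv2-2 in 72 and 48 members. Tcrg-V7, the γ segment typical of intraepithelial γδ cells, was found in 61 members (14.2%). It was in 1710 of the 8311 other double-negative cells (20.6%) and 18768 of the 42898 Cd8a+ Cd8b1- cells (43.8%). For Trgv2 these 2 sets had 46.8% and 63.1%. Reads of near-identical γ segments can be assigned to each other, and γ segment transcripts also occurred in 52.9% to 85.2% of Cd8a+ Cd8b1+ cells, so they do not mark a lineage by themselves. β segments of many kinds were seen, between 18 and 22 different Trbv genes per sample, and Trbv13-2 led them with 48 members. Semi-invariant T cells could not be picked out: Trav1, the α segment of MAIT cells, had a UMI in 1 member, and Zbtb16, the transcription factor of innate-like T cells, in 3 members. Foxp3, the factor of regulatory T cells, was at 0 in all 430 members, which allows a share of up to 0.698% of cells with a captured UMI and sets no limit on cells that express the gene.

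Among CD3+ cells, the share of members did not differ detectably between the diets. Members made up 0.642% and 0.838% of the CD3+ cells in cystine replicates 1 and 2, against 0.772% and 0.752% in control replicates 1 and 2. Exact Clopper-Pearson 95% intervals, which cover counting error only, ran from 0.514% to 0.791% for cystine replicate 1 and from 0.640% to 0.923% for control replicate 1, and they overlapped between all pairs of samples. The cystine mean was 0.740% ± 0.139 and the control mean 0.762% ± 0.0139 (SD, n = 2 each), with a two-sided exact permutation p of 1. After thinning to 1000 UMIs the means were 0.570% ± 0.133 in the cystine samples and 0.518% ± 0.0926 in the controls, so the direction was not stable either. As a share of all kept cells, members made up 0.451% and 0.700% in the cystine samples and 0.707% and 0.702% in the controls. These groups did not overlap: the means were 0.575% ± 0.176 in the cystine samples and 0.705% ± 0.00327 in the controls (SD, n = 2 each), with a two-sided exact permutation p of 0.33, the smallest possible here. The interval of cystine replicate 1, from 0.361% to 0.556%, lay below those of both controls, which began at 0.586% and 0.577%. This denominator also counts cells that are not T cells. CD3+ cells made up 13561 of 19306 kept cells in cystine replicate 1 and 13847 of 16578 in cystine replicate 2. In control replicates 1 and 2 they made up 15412 of 16829 and 14354 of 15374. B cells numbered 1888 and 774 in the cystine samples and 279 and 275 in the controls. The part of these other cells in the lower share was not tested. Fewer cells and fewer detected transcripts per cell cannot be told apart in such a count.

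**Figure D2:**
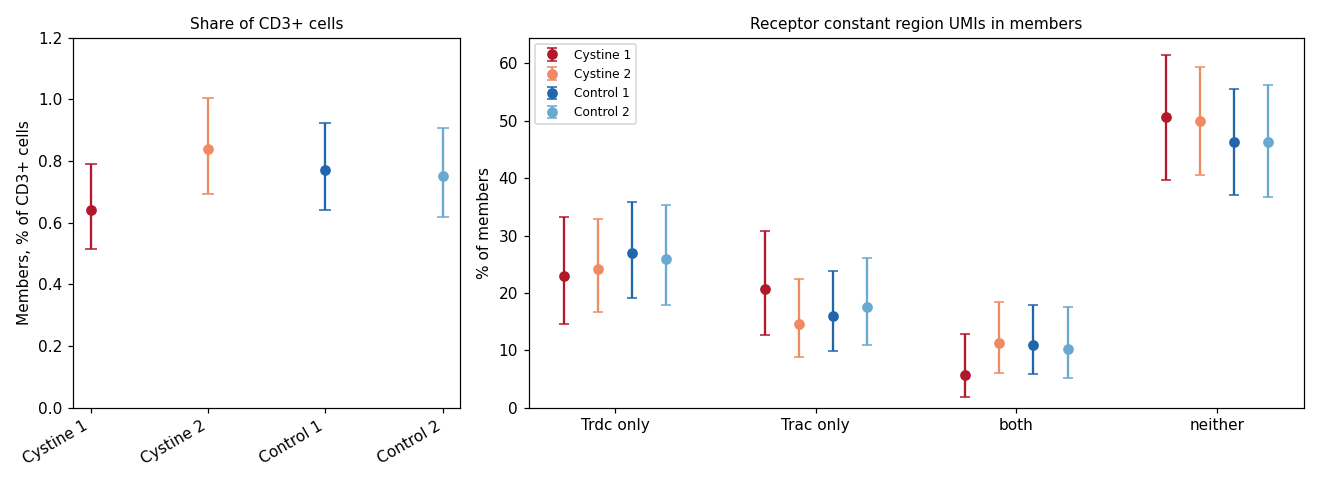
Left, members as a share of CD3+ cells in each sample; right, members by receptor constant-region transcripts (Trdc only, Trac only, both, neither) in each sample. Bars are exact 95% intervals of a share and overlap between cystine and control samples in every class.

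Against the other double-negative CD3+ cells, members had more Lef1, Id3, Il7r, Cd28, Cd5 and Icos and less Ccl5, Gzma, Gzmb, Fcer1g and Tyrobp in every sample. No test was run, because the rule used this contrast. Of 3524 genes compared, 762 (21.6%) were higher in members in 4 of 4 samples and 868 (24.6%) lower in 4 of 4. Those are the shares against which the gene lists are to be read.

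Lef1, the partner of TCF-1, had 99.4 and 123 CPM in members of the cystine samples and 108 and 71.1 CPM in those of the controls, against 27.5 to 41.5 CPM in the other double-negative cells. Id3 averaged 251 CPM in members, a log2 ratio of 1.50. Il7r, the receptor for the survival cytokine IL-7, was higher in 4 of 4 samples with a log2 ratio of 1.02, although it had 55.9 CPM in members of cystine replicate 1 against 173 to 250 CPM in the other 3 libraries. Of the 9 naive and stem-like T cell factors that could be compared, 4 (these 3 and Slamf6) were higher and 2 lower in all samples, and the list's median log2 ratio was 0.38 beside 0.01 over all genes. The homing and egress genes Ccr7, S1pr1 and Klf2 were in few members. S1pr1, the receptor for leaving tissue, had a UMI in 3.36% to 6.90% of members, while 12.9% to 14.7% of B cells had it.

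Izumo1r, Nsg2, Cd28, Sh2d1a and Slamf6 were among the 15 genes with the highest ratios. Nsg2, which encodes a vesicle protein of neurons, had 174 and 139 CPM in members of the cystine samples and 108 and 120 CPM in those of the controls, against 25.1 CPM on average in the other double-negative cells. The lowest member sample lay above the highest sample of the other cells. Cd28, the classical co-stimulatory receptor, averaged 68.5 ± 46.4 CPM in members and 12.8 ± 4.22 CPM in the other cells (SD, n = 4). Sh2d1a, the adaptor of the SLAM receptors, averaged 157 ± 131 CPM in members and 36.9 ± 4.28 CPM in the other cells, and its receptor partner Slamf6 averaged 103 ± 51.7 CPM in members and 25.9 ± 12.8 CPM in the other cells. Izumo1r, which encodes folate receptor 4 and is known from anergic and regulatory CD4 cells, had 509 and 131 CPM in members of the cystine samples and 56.2 and 44.4 CPM in those of the controls. Izumo1r was found in 25 and 10 cystine members and 6 and 5 control members, so its level rested on few cells, mostly of 1 library. Cd5, a brake on receptor signalling that is low on natural intraepithelial cells, had a log2 ratio of 1.52 with 4 of 4 samples higher, and Icos, another co-stimulator, had one of 1.25.

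Effector genes were lower. Of the 14 cytotoxic genes compared, 10 were lower in 4 of 4 samples and none was higher in all, with a median log2 ratio of -1.63. Ccl5, a chemokine stored by effector T cells, had 5548 and 6186 CPM in members of the cystine samples and 6552 and 5935 CPM in those of the controls, against 29510 to 37564 CPM in the other double-negative cells. Gzmb, a granzyme, had 416 and 226 CPM in cystine members and 480 and 360 CPM in control members, against 2581 to 5028 CPM in the other cells. B cells, which should lack both granzymes, give the background of free RNA. Gzma had a UMI in 77.0% and 57.8% of cystine members and 73.1% and 38.9% of control members, close to the B cells of the same libraries, with 69.8% and 55.0% in the cystine samples and 71.7% and 29.5% in the controls. Gzma UMIs were concentrated in a few members: the highest 2 cells held 95 and 82 of 418 UMIs in cystine replicate 1, 82 and 75 of 356 in cystine replicate 2, 83 and 62 of 504 in control replicate 1 and 196 and 99 of 502 in control replicate 2. The median member had 1 Gzma UMI in the cystine samples and in control replicate 1, and 0 in control replicate 2. In Gzmb, too, the members' 15.7% to 30.3% lay near the B cells' 7.64% to 29.7%. The shares of members with a granzyme UMI were thus close to background, while the levels summed over all members were above it: Gzmb had 50.7 to 249.5 CPM and Gzma 232 to 1058 CPM in B cells. Nkg7, a granule membrane protein, was different: 62.1% to 82.4% of members had it, against at most 11.5% of B cells. Gzmk, which marks a memory-like effector type, had a UMI in 2.59% to 6.90% of members, against 10.3% to 21.5% of the other double-negative cells.

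Receptors and adaptors of natural intraepithelial lymphocytes were lower too. Of the 14 genes compared, 11 were lower in 4 of 4 samples and 1, Cd160, was higher, with a median log2 ratio of -1.36. Fcer1g, an adaptor that can stand in for CD3ζ in these cells, averaged 858 CPM in members with a log2 ratio of -1.47. Tyrobp, the adaptor DAP12 of NK receptors, was found in 6.48% to 15.5% of members, about as often as in B cells (6.18% to 15.8%), while 31.1% to 49.2% of the other double-negative cells had it. Of the 15 homing and retention genes compared, 8 were lower and 2 higher in 4 of 4 samples, with a median log2 ratio of -0.33. Ccr9, the chemokine receptor for the small intestine, averaged 456 CPM in members and was higher in 4 of 4 samples, with a log2 ratio of 0.76. Itgae, the αE integrin that binds epithelial E-cadherin, averaged 410 CPM and was lower in 4 of 4, with a log2 ratio of -1.03, yet 34.5% to 52.6% of members had it, against at most 5.24% of B cells.

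Genes of basic cell biology also differed. All 24 cytosolic ribosomal protein genes compared were higher in members in 4 of 4 samples, with a median log2 ratio of 0.45. Of 13 interferon-response genes, 9 were higher in 4 of 4 samples and none was lower in all, with a median of 0.52; Ly6e led by level with 2086 CPM, and Ly6a, the Sca-1 antigen, was present at 209 to 236 CPM. Epithelial transcripts were lower in members. Reg3b, an antimicrobial lectin of enterocytes, had 0 and 49.2 CPM in cystine members and 25.9 and 8.88 CPM in control members, against 508 to 1172 CPM in the other double-negative cells. Lgals2, Phgr1 and Krt19 were at 0 in all members and were at least 30.4-fold, 18.2-fold and 16.3-fold lower, against a floor of 3 UMIs over all members. Of the 9 epithelial markers compared, 8 were lower in 4 of 4 samples. The part of these RNAs, and of the members' greater depth, in the other differences was not tested.

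**Figure D3:**
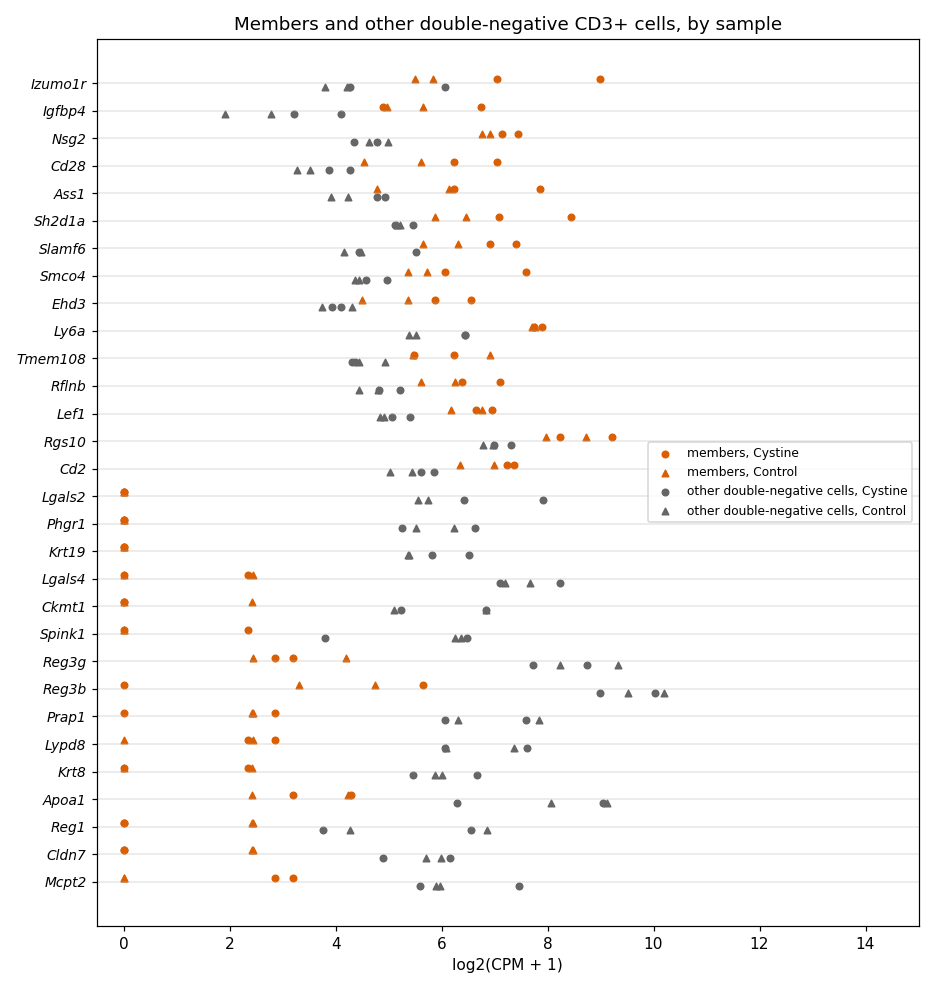
Levels, as log2(CPM + 1), of the 15 genes highest and the 15 lowest in members relative to the other double-negative CD3+ cells with the same sign in all 4 samples. Orange marks are members and grey marks the other cells, with circles for cystine and triangles for control samples; most of the lower genes are epithelial, and 3 of them were at 0 in every member sample.

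The 561 CD3+ Cd8a+ cells without Cd8b1 and Cd4 that also had Thy1 and Tcf7 differ from the members in the rule by the Cd8a limit alone. They were deeper, with medians of 2187 and 2537.5 UMIs in the cystine samples and 2304 and 2429 in the controls. The members had 1495 and 2013.5 in the cystine samples and 1812 and 1886.5 in the controls. Shares in this paragraph are not thinned to equal depth. Again without a test, 353 of 3222 genes (11.0%) were higher in members in 4 of 4 samples and 369 (11.5%) were lower. Icos averaged 50.8 ± 16.2 CPM in members and 10.3 ± 7.15 CPM in the Cd8a+ cells (SD, n = 4), and Cd5 averaged 121 ± 63.4 CPM in members and 31.8 ± 14.7 CPM in the Cd8a+ cells. Ly6a, at 219 ± 12.04 CPM in members, had 64.6 ± 21.8 CPM in the Cd8a+ cells. These genes, like Lef1, Sh2d1a and Izumo1r, were higher in members in 4 of 4 samples. Gzma averaged 2117 ± 475 CPM in members, where a few cells held many of its UMIs, and 7923 ± 1450 CPM in the Cd8a+ cells, and Gzmb averaged 370 ± 108 CPM in members and 1351 ± 218 CPM in the Cd8a+ cells. Tcrg-V7 averaged 185 ± 49.7 CPM in members and 623 ± 197 CPM in the Cd8a+ cells. At these unlike depths, Tgm2 was about as frequent in both sets, with 4.11% and 16.7% of the cystine and 15.9% and 19.3% of the control Cd8a+ cells. So was Id3, with 19.9% to 37.8%. Ccr9 averaged 456 CPM in members and 457 CPM in the Cd8a+ cells. Cells with exactly 1 UMI of Cd8a, just outside the rule, had Cd160 in 63.6% and 72.7% of the cystine and 80.0% and 90.0% of the control samples' cells. Double-negative cells with Thy1 alone had Cd160 in 58.8% to 63.2%, and those with Tcf7 alone in 55.4% to 81.0%.

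Members with Trdc and no Trac UMI and members with Trac and no Trdc UMI were then compared within the samples. The rule did not use these receptor transcripts. Of 661 genes tested, 28 (4.24%) passed an adjusted p of 0.05 in edgeR's quasi-likelihood test with the sample as a block and Benjamini-Hochberg adjustment. Of these, 13 (1.97%) were higher in the 108 Trdc cells and 15 (2.27%) were lower, relative to the 73 Trac cells. T cell receptor genes were left out. As a look at the split, Trbc2 was found in 37.0% of the Trdc and 50.7% of the Trac cells. Trbc1 was found in 19.4% and 21.9%, Trgv2 in 74.1% and 43.8%, and Tcrg-V1 in 63.9% and 27.4%. The classes thus stand for captured Trdc or Trac UMIs, and the lineage of the cells was not tested. All CPM given between these receptor classes are TMM-scaled. Itgae, Ccr9, Cd7 and Cd160 were among the genes higher in Trdc cells, and Lgals1, Ifi27l2a, Ly6a, Hmgb2 and Gapdh were among those lower in them.

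Cd7, an immunoglobulin-like receptor of lymphocytes, had 5330, 6533, 5456 and 4926 TMM-scaled CPM in the Trdc cells of cystine replicates 1 and 2 and control replicates 1 and 2. In the Trac cells of the same samples it had 1780, 2697, 3235 and 3799. The 2 sets did not overlap, and the log2 fold change was 0.96 with an SE of 0.16 (adjusted p = 0.000277). Itgae had 823, 1022, 890 and 622 CPM in the Trdc cells and 165, 257, 359 and 323 CPM in the Trac cells, a log2 fold change of 1.57 with an SE of 0.30 (adjusted p = 0.00192). Here too every Trdc value was above every Trac value. Ccr9 averaged 907 ± 131 CPM in Trdc cells and 399 ± 245 CPM in Trac cells (SD, n = 4), with an adjusted p of 0.0305. Cd160 averaged 1969 ± 316 CPM in Trdc cells and 1090 ± 523 CPM in Trac cells, with an adjusted p of 0.0393. Each of these 3 genes stayed higher in Trdc cells under the alternatives, but the adjusted p rose above 0.05 in 2 of 11 for Itgae, 6 of 11 for Ccr9 and 7 of 12 for Cd160. For Cd160 without cystine replicate 1 the log2 fold change was 0.49, against 0.86 with all samples, and the adjusted p 0.305. Ctsw, a lymphocyte cathepsin, was higher by 0.95 on the log2 scale, Plac8 by 1.30, Ssbp2, a single-stranded DNA binding protein gene, by 2.06, and Dapk2, a kinase, by 1.12. The remaining named genes higher in Trdc cells were Mfsd10, AW112010 and Rpl9, whose log2 fold changes were 1.37, 0.66 and 0.37. The other 2 of the 13, the CD3 genes Cd3e and Cd3g, are named after their values were seen. The member rule had used both, so nothing is drawn from them.

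Lgals1, which encodes galectin-1, had the largest log2 fold change of the 28 genes. It had 43.3, 0, 23.4 and 24.9 CPM in the Trdc cells of cystine replicates 1 and 2 and control replicates 1 and 2, and 494, 428, 503 and 430 CPM in the Trac cells of the same samples. In cells, 1, 0, 1 and 1 Trdc members and 5, 6, 8 and 5 Trac members had a Lgals1 UMI in these samples. The log2 fold change was -4.22 with an SE of 0.54 (adjusted p = 1.29e-05), and the sets did not overlap. Ifi27l2a, an interferon-induced mitochondrial protein gene, had 130, 108, 140 and 24.9 CPM in Trdc cells and 2077, 1156, 719 and 860 CPM in Trac cells, a log2 fold change of -3.44 with an SE of 0.35 (adjusted p = 3.34e-07). Ly6a had 43.3, 215, 70.2 and 24.9 CPM in Trdc cells and 725, 1070, 503 and 717 CPM in Trac cells, with a log2 fold change of -3.03 and an adjusted p of 1.47e-05. B cells carry Ly6a themselves, in 30.5% to 55.0%, while 5.0%, 7.14%, 6.25% and 3.57% of Trdc and 16.7%, 35.3%, 21.1% and 26.3% of Trac members had it. The summed B and plasma cell markers were 7057 and 610 CPM in the Trdc cells of the cystine samples and 661 and 582 in those of the controls, and 5889 and 389 CPM in the Trac cells of the cystine samples and 945 and 421 in those of the controls. In cystine replicate 1 each sum rested on 1 of the 2 cells described above, and without it the sum was 885 CPM in the Trdc cells and 646 CPM in the Trac cells. These sums overlapped between the Trdc and the Trac cells, and their part in the difference was not tested.

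Hmgb2, a chromatin protein that is abundant in dividing cells, averaged 228 ± 19.9 CPM in Trdc cells and 863 ± 300 CPM in Trac cells (adjusted p = 0.000277). Of the 2 proliferation genes tested, the other, Tubb5, did not pass. H2afz, a histone variant, and Ran, the nuclear transport GTPase, were lower in Trdc cells by log2 fold changes of -0.94 and -0.92. Under the alternatives H2afz ran from -1.39 to -0.022 and passed in 8 of 11. Ran ran from -1.24 to 0.0037 and passed in 4 of 11. The glycolytic enzymes Gapdh and Pkm had log2 fold changes of -1.23 and -1.04, and passed in 10 of 11 and 7 of 12 alternatives. In cystine replicate 1, 1 Trac cell held 11800 of the 48223 UMIs of the Trac cells. The part of that cell by itself in these differences was not tested. Tagln2 and Rap1a, an actin-bundling protein and a small GTPase of integrin activation, had -1.27 and -1.16, and Prdx1, a peroxiredoxin, had -1.01. Lat, the scaffold that passes on the receptor signal, averaged 795 ± 134 CPM in Trdc cells and 1596 ± 118 CPM in Trac cells (adjusted p = 0.00212). Vim, Actg1 and Ucp2 also passed, were lower in Trdc cells, and are given after their values were seen.

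By list, 2 of 5 tested genes of natural intraepithelial lymphocytes were higher in Trdc cells (Cd160 and Cd7), as were 2 of 5 homing genes (Itgae and Ccr9) and 1 of 9 cytotoxic genes (Ctsw). Of 5 interferon-response genes tested, 2 were lower (Ifi27l2a and Ly6a). None of the 24 ribosomal protein genes of the list and none of 16 respiratory chain genes passed; Rpl9 is in neither list. Tgm2 and Izumo1r were too low to be tested. Tgm2 had a UMI in 25.0%, 17.9%, 21.9% and 35.7% of Trdc members and 0%, 11.8%, 5.26% and 5.26% of Trac members in cystine replicates 1 and 2 and control replicates 1 and 2. Izumo1r was found in 1, 0, 0 and 1 Trdc members and in 9, 3, 3 and 2 Trac members of these samples. Cd28 was found in 0, 0, 1 and 0 Trdc members and in 5, 7, 3 and 1 Trac members. More Trdc than Trac members thus had Tgm2, and fewer had Izumo1r or Cd28, in each of the 4 samples.

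The number of genes that passed between receptor classes changed with the cells used. It was 9 with the barcodes of most UMIs left out as possible doublets, and without cells that had a UMI of another cell type's marker it was 4 of 146 genes tested, none of them among the 28. Of the 23 named genes, Lgals1, Ifi27l2a, Ly6a and Hmgb2 passed with the same sign under every alternative that gave them a value, which was 10 or 11 of them, and Cd7 under 12 of 13. These 4 genes had no value without cells with another type's marker or without the 5 cells with most UMIs of each gene. They were thus not tested there. Of the named genes with a value, all 4 were lost in the first of these settings, and 6 were lost and 2 kept in the second. The count was 11 without cystine replicate 2 and 17 without cystine replicate 1.

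**Figure D4:**
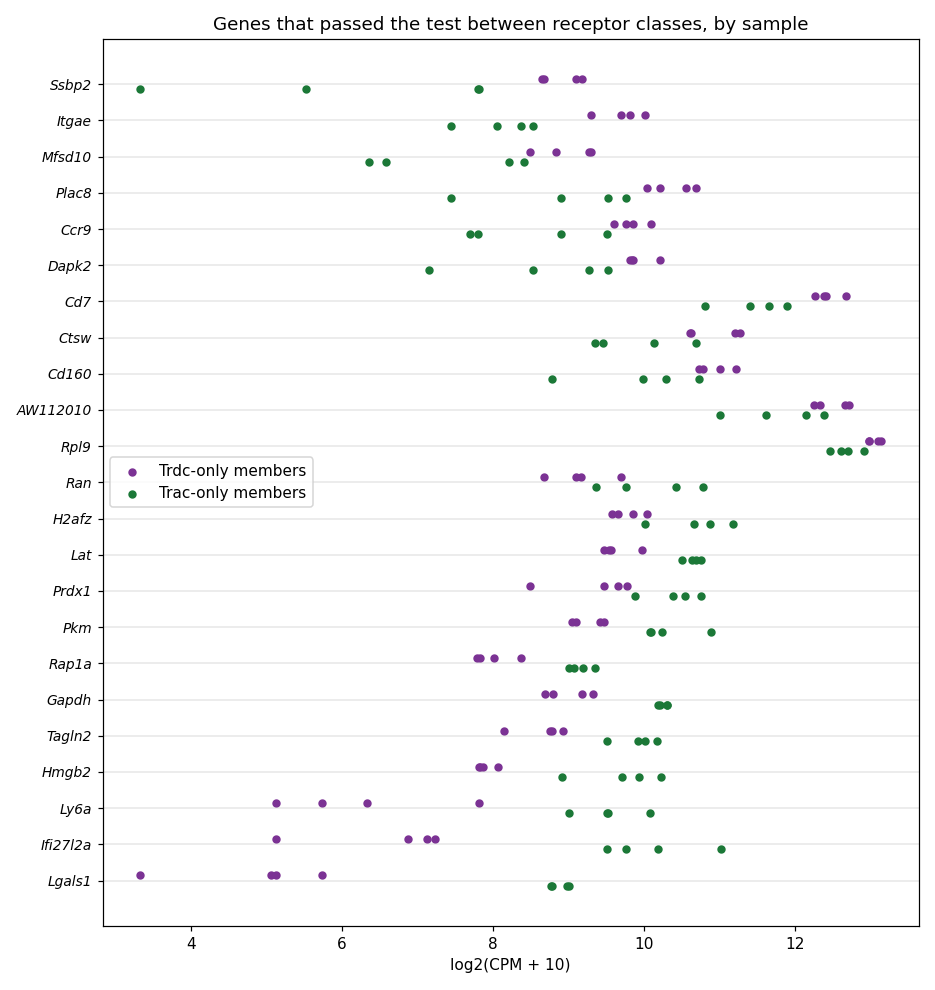
TMM-scaled CPM, as log2(CPM + 10), of the 23 named genes that passed the test between members with Trdc and without Trac (purple) and members with Trac and without Trdc (green). Each point is 1 of 4 samples; the 11 genes from Ssbp2 to Rpl9 are higher and the 12 genes from Ran to Lgals1 lower in the Trdc cells in 4 of 4 samples.

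Between the diets, 2 of 3537 genes (0.0565%) passed in members, both higher on the cystine diet, and none (0.0%) was lower. At an unadjusted p under 0.05 there were 186 genes (5.26%). The cystine and control samples did not overlap for 1222 genes (34.5%). The CPM given between the diets are TMM-scaled. Single samples moved the count: it was 60 without cystine replicate 2, 15 without cystine replicate 1 and 16 without control replicate 1, each time with Defa24 and Cdk8 among the genes.

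Defa24, an α-defensin that Paneth cells secrete into the crypt, had 355 and 255 TMM-scaled CPM in members of the cystine samples and 0 and 0 in those of the controls (adjusted p = 0.000281). Summed over the samples it was at least 40.2-fold higher, against a floor of 3 UMIs over the control members. α-Defensins form a family of near-identical genes, so the assignment of reads to Defa24 is uncertain. The transcript was not particular to members: in the 2 cystine samples it was found in 29.9% and 6.90% of members, 26.4% and 11.2% of other double-negative cells, and 21.6% and 8.91% of B cells, while no control member or control B cell had it and, in the other double-negative cells, 5 and 4 cells of the controls did. In cystine replicate 2, 2 members held 22 and 18 of its 56 UMIs. The 18 Paneth and goblet cell markers summed to 522 and 476 CPM in cystine members and 38.9 and 35.5 CPM in control members, and to 538 and 1289 CPM in cystine B cells and 63.0 and 36.2 CPM in control B cells.

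Cdk8, a kinase of the transcriptional Mediator complex, had 3172 and 2894 CPM in cystine members and 705 and 1198 CPM in control members. The groups did not overlap, and the log2 fold change was 1.67 with an SE of 0.19 (adjusted p = 0.00207). A few cells carried it: 2 members of cystine replicate 1 held 191 and 164 of its 456 UMIs, and 4 of cystine replicate 2 held 117, 114, 108 and 99 of 635, while the highest control cells had 39 and 34. The share of members with a Cdk8 UMI was 42.5% and 45.7% in the cystine samples and 36.1% and 56.5% in the controls, and these overlapped. Without the 5 cells with most UMIs of each gene in each sample, the log2 fold change was 0.48 and the adjusted p 0.974. None of the 2234 genes tested in that setting passed, with 100 at an unadjusted p under 0.05. Defa24 was not among the genes tested there, so it was not retested.

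**Figure D5:**
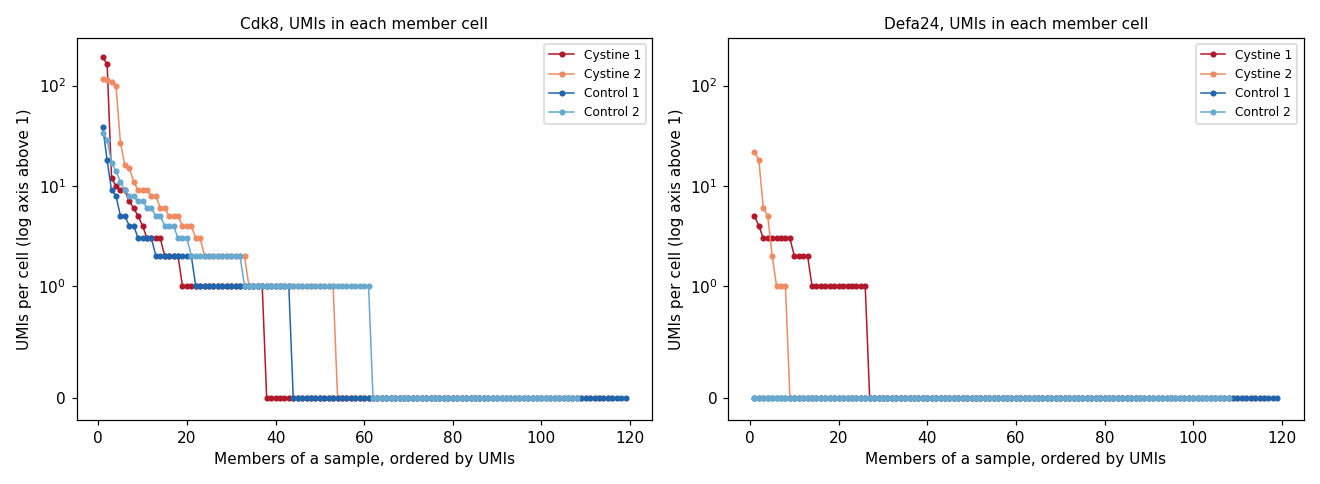
UMIs of Cdk8 (left) and Defa24 (right) in each member cell, ordered from high to low within a sample, with a log axis above 1 UMI. The 6 cells with 99 or more Cdk8 UMIs all lie in the cystine samples, and Defa24 is at 0 in all control members.

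The 3 marker genes that the rule did not use, and the other genes named here, did not pass between the diets. Cd160 had 890 and 1235 CPM in cystine members and 1102 and 1377 CPM in control members, with a log2 fold change of -0.21 and an SE of 0.18 (adjusted p = 0.934). Id3 had 369 and 269 CPM in cystine members and 220 and 269 CPM in control members, with 0.35 and an SE of 0.23. Lef1 had 0.31 with an SE of 0.33, and Tgm2 had -0.50 with an SE of 0.39. The cystine and control samples overlapped for each of these 4 genes. Izumo1r had 570 and 146 CPM in cystine members and 63.7 and 49.9 CPM in control members, with a log2 fold change of 2.55, an SE of 0.57 and an adjusted p of 0.463. Sh2d1a had 390 and 150 CPM in cystine members and 97.9 and 64.9 CPM in control members (1.65, SE 0.43, adjusted p = 0.741). Cd28 and Slamf6 had log2 fold changes of 1.45 and 1.12, also without passing, and in all 4 of these genes cystine replicate 1 had the highest level. Izumo1r passed under 4 of 12 alternatives, all in edgeR: without cystine replicate 2 at 3.30 (adjusted p = 1.58e-21), without control replicate 1 at 2.75 (adjusted p = 0.00034), with the replicate number as a block at 2.56 (adjusted p = 0.00572), and with no filter on low counts at 2.51 (adjusted p = 4.16e-11). It did not pass under the other 8, and without cystine replicate 1 its log2 fold change was 1.35 (adjusted p = 0.129). The part in these levels of the 2 cells of that sample that held most of its B cell marker UMIs was not tested.

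Genes that handle cystine and its products were looked at because of the diet. Slc7a11, the cystine importer, was at 0 in all members, which allows a share of up to 0.698% of cells with a captured UMI, not of cells that express it. Of the 19 genes of cystine transport and glutathione, 7 were high enough to be tested and none passed, with a median log2 fold change of 0.12 beside 0.01 over all genes tested. Gclm, the regulatory subunit of the enzyme that starts glutathione synthesis, had 97.4 and 210 CPM in cystine members and 171 and 105 CPM in control members. Gpx4, which uses glutathione to remove lipid peroxides, had 675 and 706 CPM in cystine members and 872 and 923 CPM in control members (-0.38, SE 0.15, adjusted p = 0.866). Its groups did not overlap, but it did not pass. None of 10 thioredoxin and peroxiredoxin genes and none of 4 genes of the amino acid shortage response passed. All 10 genes of coenzyme A synthesis were too low to be tested. The cytokine Il22, which names the study's question, had a UMI in 1 member of cystine replicate 1 and 1 of control replicate 1. Ifng likewise had a UMI in 2 members.

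The difference of the diet effects between members and the other double-negative cells was tested by an interaction term, blocked by sample. Of 9588 genes tested, 10 (0.104%) passed and 371 (3.87%) had an unadjusted p under 0.05. The count was 25 without cystine replicate 2 and 5 without cystine replicate 1. Of the 10 genes, 8 had the higher diet effect in members. Cdk8 had a difference of the log2 diet effects of 1.89 with an SE of 0.20 (adjusted p = 2.19e-15); its TMM-scaled levels in the other double-negative cells were 1143 and 1176 CPM in the cystine samples and 1060 and 1751 CPM in the controls. The macrophage genes C1qa, C1qb and Apoe, the antigen-presentation genes Cd74 and H2-Eb1, the receptor segments Trbv20 and Trav14n-3, the replication factor gene Pclaf and B230359F08Rik made up the rest. C1qa had 27, 0, 0 and 0 UMIs in members of cystine replicates 1 and 2 and control replicates 1 and 2, all 27 of them in 1 cell. Cd74 had 393 and 31 UMIs in cystine members and 42 and 10 in control members, and 2 cells held 179 and 162 of the 393. Without the 5 cells with most UMIs of each gene, none of 8316 genes passed, with 137 at an unadjusted p under 0.05. Of the 10 genes, 3 kept their sign there without passing, 1 turned its sign and the rest had no value.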

How the data were processed

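Single cells had been sorted and made into 10x Genomics 5′ libraries, per the labels' protocols, with 18000 cells loaded per sample. The deposited values are UMI counts per gene and barcode, not normalised; the file headers name Cell Ranger 7.0.1, whereas GRCm39, Seurat 4.0.1 and Cell Ranger 3.1.0 are the entries in the submitters' processing notes. Barcodes with at least 500 UMIs were in the files. The members and the gene lists were chosen with earlier results of these data known.

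Counts were summed per sample over the cells of a set, because cells are not replicates. Between diets (cystine over control), between receptor classes, and for the difference of diet effects, the sums were fitted with edgeR 4.0.16 (R 4.3.3; filterByExpr, TMM scaling, glmQLFit and glmQLFTest), and p-values were adjusted over all genes tested (Benjamini-Hochberg) with a threshold of 0.05. Every adjusted p in the text comes from this test unless another is named. SEs are the log2 fold change divided by the root of the F statistic. CPM in descriptions are on raw totals and those beside tests on TMM-scaled totals. Shares were compared with an exact permutation test (scipy 1.17.1). Exact intervals and limits from counts of 0 (3 counts) cover counting error only. Thinning drew 1000 UMIs per cell. No doublets were removed; an alternative left out the barcodes with most UMIs at 0.8% per 1000 barcodes.

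Named genes past the threshold had at least 20 CPM (diet, interaction) or 50 CPM (receptor classes) in 1 group, up to 12 each way (6 for the interaction). Between the diets their groups did not overlap, and between the receptor classes their sign was the same in 4 of 4 samples. For the interaction no such condition was set, and all 10 genes that passed are given, beyond that limit. In the description the named genes were the 15 highest and 15 lowest ratios with at least 50 CPM and the same sign in all samples. From each list came the genes that passed and up to 4 by level, and Id3, Tgm2, Cd160, Trdc, Trac, Il22, Ifng, Gzmk and Ly6a were always looked up; genes outside these are named from the lists or chosen after their values were seen. Alternatives were DESeq2 1.42.0, other scaling, filters and gates, the replicate block and each sample left out. On simulated counts, the diet test recovered 38.7% of 2-fold and 92.0% of 4-fold changes, and the receptor test 92.9% and 100%. The interaction test recovered 11.5% and 40.4%. False calls numbered 8 in the diet, 3 in the interaction and 10 in the receptor test. The simulation gave all genes of a comparison the same dispersion and no UMIs concentrated in a few cells. It therefore does not cover genes such as Cdk8.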

Additional observations from a re-analysis of the deposited data

Results flagged for a closer look

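For 10 genes the diet effect differed between members and the other double-negative cells by edgeR's test of the interaction. The difference of the log2 diet effects was 1.89 for Cdk8, 10.69 for Apoe, 13.65 for C1qa, 8.05 for C1qb, 1.86 for Cd74, 2.86 for Trbv20, 9.98 for B230359F08Rik, 2.65 for H2-Eb1, -6.78 for Trav14n-3 and -4.04 for Pclaf. Where a group is at 0 in every library, as control members were for C1qa, Apoe and B230359F08Rik, the fitted difference depends on the prior count and gives no size. Apoe had 36 UMIs in members of cystine replicate 1 and 0 in those of cystine replicate 2 and of both controls. C1qb had 22 and 0 UMIs in cystine members and 2 and 0 in control members. H2-Eb1 had 78 and 4 UMIs in cystine members and 6 and 0 in control members. Pclaf had 2 and 0 UMIs in cystine members and 6 and 19 in control members. Trbv20 had 9 and 30 UMIs in cystine members and 20 and 0 in control members, and Trav14n-3 had 0 and 1 in cystine members and 13 and 0 in control members. In the other double-negative cells Trbv20 had 32 and 43 UMIs in the cystine samples and 37 and 286 in the controls, and Trav14n-3 had 6 and 47 in the cystine samples and 3 and 3 in the controls. For Cd74, 2 cells of cystine replicate 1 held 179 and 162 of its 393 UMIs there.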

How the results depend on the processing

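The share of members has no design that could pass the threshold; its ratio of cystine to control was 0.970 and ran from 0.842 to 1.10 with each sample left out. The diet count of 2 was 30 with no filter on low counts, 4 without cells with another type's marker, 0 without the 5 top cells of each gene, and 2 to 60 with each sample left out. The interaction count of 10 was 6 without the barcodes with most UMIs, 0 without the top cells, and 5 to 25 with each sample left out. The receptor count of 28 was 9 without the barcodes with most UMIs, 4 without cells with another type's marker, 18 with at least 3 Thy1 and Tcf7 UMIs, 2 without the top cells, 5 with DESeq2's Wald test, and 11 to 27 with each sample left out. A sample left alone in its group was assumed to vary like the other group. The setting without top cells was chosen after seeing the data. Defa24 had no value in it, nor without cells with another type's marker. With the replicate block the diet count was 5; the labels do not say that numbers pair samples, and same-numbered deviations correlated by 0.0539. Signs turned for Apoe (-0.38 without top cells) and Ran (0.0037 without the barcodes with most UMIs). With a sample left out the interaction ran from -0.25 to 3.07 for Cd74, -0.24 to 13.12 for Trbv20, -0.48 to 10.06 for H2-Eb1 and -9.53 to 1.84 for Trav14n-3. Fewer genes are tested in smaller cell sets; otherwise the cause was not tested. The number of members, 87 to 119 per sample, limits all gene counts.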

Other observations

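Further gene groups, not tested against the other double-negative cells, were as follows. Of 9 heat shock and dissociation genes described, 5 were higher and 1 lower in members in 4 of 4 samples. Of 20 respiratory chain genes, 4 were higher and 2 lower, with a median log2 ratio of 0.06. Of 7 inhibitory receptor genes, 5 were lower and 1, Cd160, was higher; Lag3 had a log2 ratio of -1.70 and Tox -0.96. Xcl1, a chemokine that attracts cross-presenting dendritic cells, had a UMI in 36.8% and 29.3% of members in the cystine samples and 32.8% and 41.7% in the controls, against 11.0% to 17.8% of the other double-negative cells. After thinning to 1000 UMIs these shares were 29.3% and 20.7% of cystine members and 23.4% and 30.2% of control members, against 13.2% to 19.0% of the other double-negative cells. At most 0.583% of B cells had a UMI before thinning. In level, Xcl1 was higher in 3 of 4 samples, with a log2 ratio of 0.38. Tubb5, a tubulin, was higher in members in 4 of 4 samples with a log2 ratio of 0.95, and Mki67, a marker of dividing cells, averaged 14.8 CPM in members.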
